A study of Rattus norvegicus with 20 samples.

Results

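The genes described here are *Bok* and 9 further genes of the BCL2 family, *Bcl2*, *Bcl2l1*, *Mcl1*, *Bax*, *Bak1*, *Bad*, *Bid*, *Bbc3* and *Bnip3*, 10 of the 31038 gene symbols counted in the medial prefrontal cortex (mPFC) of rats. They were found by symbol, and the family was picked because *Bok* had the smallest p-value of all genes between LSD-treated and saline-treated rats. The difference in *Bok* itself is therefore given as a description without a test, and the remaining 9 genes are read from a fit of all genes. RNA came from 20 male Sprague-Dawley rats with 1 poly(A)-selected library per rat. In the LSD group, 10 rats were injected intraperitoneally on alternate days over 90 days with 0.16 mg/kg lysergic acid diethylamide (LSD), a psychedelic that activates serotonin receptors. In the control group, 10 rats received sterile saline on the same schedule. The sample labels place the end of treatment 3 weeks before the mRNA was profiled and the start of treatment at 6 to 8 weeks of age, whereas the study's methods give a somewhat longer interval and older rats for both groups alike. Each library comes from dissected tissue of 1 hemisphere, so that fewer cells of a type and less RNA per cell cannot be told apart.

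BCL2 proteins decide whether the outer mitochondrial membrane of a cell stays closed or is opened, the step that releases cytochrome c and commits a cell to apoptosis. Guardians such as BCL2, BCL-XL and MCL1 hold in check the pore-forming effectors BAX and BAK, and BH3-only proteins such as BAD, BID and PUMA bind the guardians or switch on the effectors. BOK resembles BAX and BAK in sequence but is not restrained by the guardians in the same way, sits largely on the endoplasmic reticulum where it binds inositol trisphosphate (IP3) receptors, and is kept low by rapid degradation of the protein. Adult neurons are comparatively resistant to this route of cell death, and several of these proteins have further roles there in calcium handling and in the shape of mitochondria.

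The libraries of the LSD group held 16346629 to 25552681 reads on genes and those of the control group 11098076 to 24201351. A gene was tested where 10 or more rats had 5 or more reads on it, which held for 16605 genes and for all 10 family members, the latter with no fewer than 40 reads in any rat. Levels are given in reads per 1000000 reads on genes (RPM) after TMM normalisation, a scaling of each library by a trimmed mean of its gene ratios. Transcript lengths of the annotation used for counting were not used here, so levels are compared between rats and not between genes. Over all genes tested, edgeR's quasi-likelihood test gave an adjusted p-value under 0.05 for 2495 genes (15.0%), 1077 of them higher (6.49%) and 1418 lower (8.54%) in LSD-treated rats, so that 56.8% of the called genes were lower. The share of lower genes among those called was 36.4% with scaling by total counts, 46.5% without the filter on low counts and 66.8% after a correction for gene span. Differences are given as the fitted log2 ratio (LSD over saline, the log2 fold change). Across genes this ratio increased with genomic span, the distance from a gene's start to its end (Spearman's rho = 0.36 across 14942 genes, which are not independent replicates). Per rat, the slope of log2 expression (relative to each gene's mean over all rats) on the log10 of gene span ranged from 0.0188 to 0.0836 in the LSD group and from -0.225 to 0.0306 in the control group, in which saline rat 9 was the lowest and stood apart from the next value, -0.103. Cortical identity was checked with *Slc17a7*, *Neurod6* and *Tbr1* of excitatory neurons, with no fewer than 490 reads of any of them in a rat, and the 3 markers of choroid plexus summed to at most 4.83 RPM. Markers of striatal projection neurons (*Drd1*, *Adora2a*, *Rgs9* and *Ppp1r1b*) stood apart in 4 rats, with sums of 425.8 RPM in saline rat 8, 410.1 in saline rat 9, 344.9 in saline rat 2 and 307.8 in LSD rat 9, against 124.6 to 199.9 RPM in the others.

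*Bok*, the effector that gave the family its place here, was lower in every LSD-treated rat than in any control rat. In the LSD group the lowest rat had 24.2 RPM, the median was 27.4 RPM and the highest rat had 30.3 RPM. In the control group the lowest rat had 33.1 RPM, the median was 38.0 RPM and the highest rat had 44.9 RPM. The groups did not overlap, with the highest control values in saline rats 4 and 5 and the lowest in saline rat 7. Such a separation of all 10 from all 10 rats was seen for 32 of the 16605 genes (0.193%). Means were 27.2 ± 2.26 RPM (SD, n = 10) after LSD and 38.4 ± 3.73 RPM (SD, n = 10) after saline, a change in the mean of -29.1%. These levels rest on 459 to 767 reads per rat in the LSD group and 475 to 889 reads in the control group. The fitted log2 ratio of *Bok* was -0.50 (standard error 0.060, 95% confidence interval from -0.62 to -0.37), and 2.99% of all genes had a larger change in either direction. Without any single rat it lay between -0.52 and -0.47, and with other normalisations, filters and tools between -0.50 and -0.45. When each library was thinned to the reads of the smallest library, it was -0.49, and without the 4 rats of high striatal markers it was -0.50. Because *Bok* was chosen by this contrast, these values describe the selected gene and do not support its change independently.

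**Figure D1:**
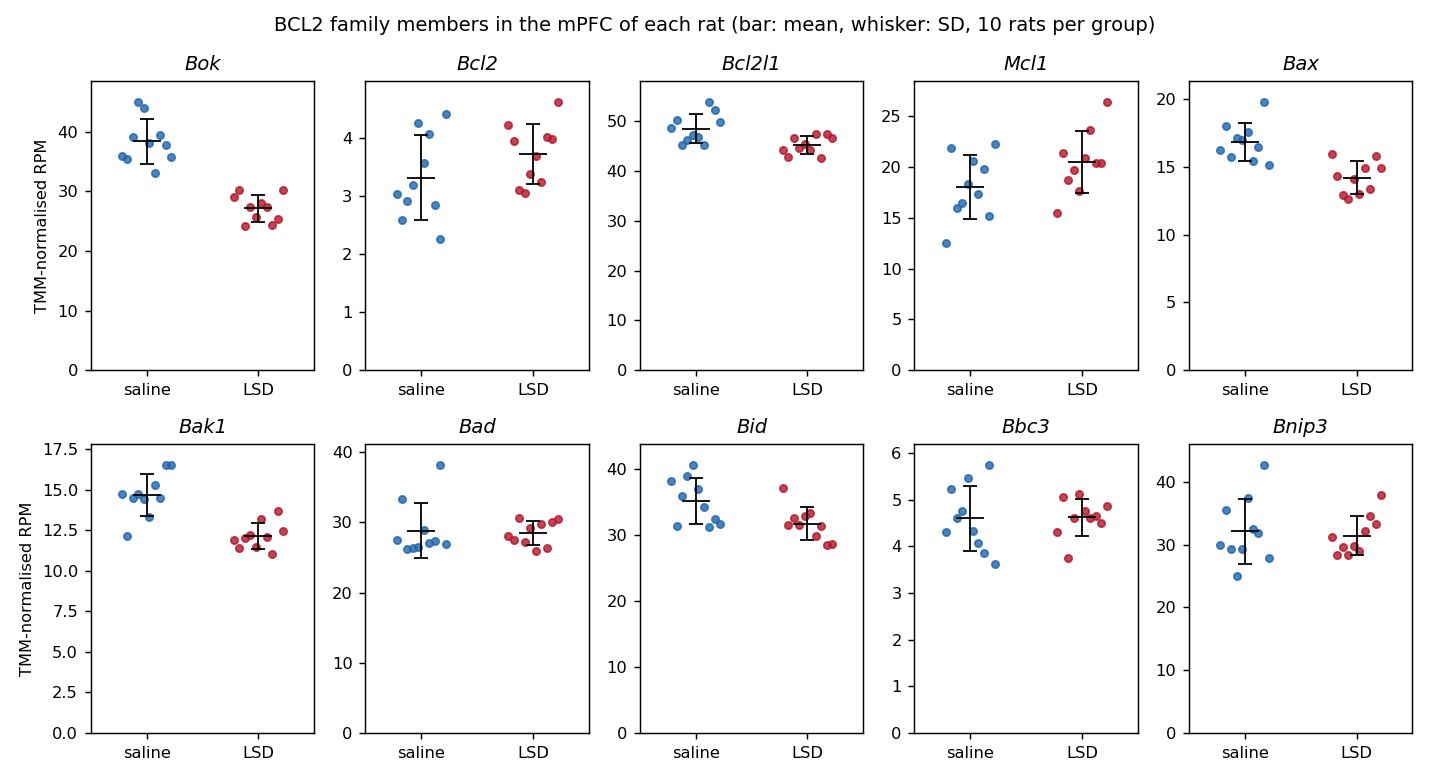
Level of each of the 10 genes in every rat, in TMM-normalised RPM on a linear axis starting at 0, for 10 saline-treated rats (blue) and 10 LSD-treated rats (red); the bar is the mean and the whisker the SD. The *Bok* points of the groups do not overlap, with LSD-treated rats between 24.2 and 30.3 RPM and controls between 33.1 and 44.9 RPM, whereas the points of the other 9 genes overlap.

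*Bax* and *Bak1*, the other effectors of the family, were both down-regulated in LSD-treated rats. *Bax*, which moves from the cytosol into the outer mitochondrial membrane when activated, had 12.6 RPM in the lowest, a median of 14.2 RPM and 15.9 RPM in the highest LSD-treated rat. The corresponding values of the controls were 15.1, 16.7 and 19.7 RPM. All 10 LSD-treated rats were below the control median and 8 of them were below every control, so that the groups overlapped at their edges. The mean level of *Bax* was 14.2 ± 1.20 RPM (SD, n = 10) against 16.8 ± 1.38 RPM (SD, n = 10), with a log2 ratio of -0.25 (standard error 0.060, adjusted p = 0.0118, edgeR's quasi-likelihood test, Benjamini-Hochberg adjusted over all genes tested). Without saline rat 9, which had the highest *Bax* level and the lowest span slope, the log2 ratio was -0.22 (adjusted p = 0.0203, same test).

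*Bak1*, which resides in the outer mitochondrial membrane, had 11.1 RPM in the lowest, a median of 12.0 RPM and 13.7 RPM in the highest LSD-treated rat. The controls had 12.2, 14.6 and 16.5 RPM. Here, too, all 10 LSD-treated rats were below the control median, 6 were below every control, and 8 controls were above every LSD-treated rat. Means were 12.1 ± 0.805 RPM after LSD and 14.7 ± 1.31 RPM after saline (SD, n = 10 each). The log2 ratio of *Bak1* was -0.27 (standard error 0.060, adjusted p = 0.00806, edgeR's quasi-likelihood test), and it was -0.25 without saline rat 9 (adjusted p = 0.0131, same test). A predicted gene overlaps *Bak1* in the RefSeq annotation of the later assembly GRCr8, and the strand setting of the counting is not given in the sources used here, so that reads of this locus could include those of its neighbour. *Bok* and *Bax* have no overlapping gene in the same annotation.

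Of the 9 members other than *Bok*, 2 were down-regulated and none was up-regulated by edgeR, beside 15.0% of all genes called. At an unadjusted p under 0.05, *Bcl2l1* and *Bid* were lower as well and no member was higher, where 30.8% of all genes reached that level and 16.4% did so with a lower value in LSD-treated rats. DESeq2 also called no member higher. Without the 4 rats of high striatal markers, a choice made after the data were seen, *Bax* (-0.22, adjusted p = 0.0219), *Bak1* (-0.30, adjusted p = 0.00451) and *Bid* (-0.19, adjusted p = 0.0302, edgeR's quasi-likelihood test) passed the threshold. The median log2 ratio of these 9 genes was -0.03, against 0.00 over all genes tested. The members were chosen together with *Bok* when results of this contrast were known, so that this count is a description.

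**Figure D2:**
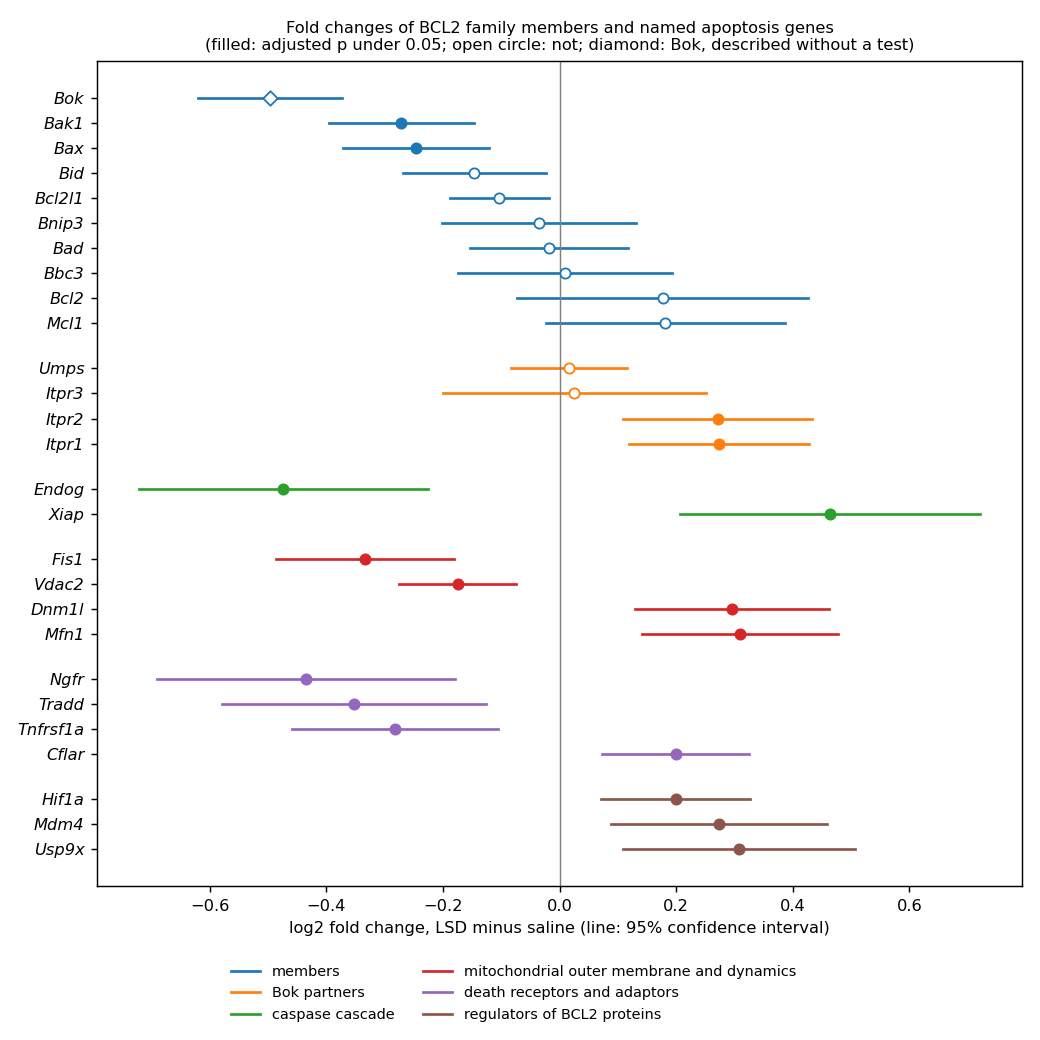
Log2 fold change (LSD minus saline, horizontal axis) with its 95% confidence interval for the 10 family members and for named genes of related lists, coloured by list; filled circles have an adjusted p under 0.05, open circles do not, and the diamond marks *Bok*, which is described without a test. The effectors *Bok*, *Bak1* and *Bax* have the 3 lowest values among the members, from -0.50 to -0.25, and the guardians *Bcl2* and *Mcl1* the highest, 0.18 each, with intervals that include 0. The remaining guardian, *Bcl2l1*, is at -0.10, with an interval from -0.19 to -0.02.

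None of the 3 guardians passed the threshold by edgeR, with fitted values below 0 for *Bcl2l1* and above 0 for *Bcl2* and *Mcl1*, and a difference between them was not tested. *Bcl2l1*, which encodes BCL-XL, the main guardian of mature neurons, had 42.6 RPM in the lowest, a median of 45.0 RPM and 47.4 RPM in the highest LSD-treated rat, and the controls had 45.1, 47.9 and 53.7 RPM. All 10 LSD-treated rats were below the control median and 5 were below every control. The log2 ratio was -0.10 (standard error 0.041, 95% confidence interval from -0.19 to -0.02), which did not pass the threshold (adjusted p = 0.0915, edgeR's quasi-likelihood test). It passed with DESeq2 (adjusted p = 0.0415) and after a correction for gene span, with a log2 ratio of -0.16 (adjusted p = 0.0216), and scaling by total counts moved it to -0.06 (adjusted p = 0.454). A ribosomal protein pseudogene lies within *Bcl2l1* in the GRCr8 annotation.

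*Bcl2*, the founding guardian of the family, was the most thinly covered member, with 40 to 117 reads per rat. Its lowest, median and highest levels were 3.07, 3.82 and 4.62 RPM in LSD-treated rats and 2.27, 3.11 and 4.43 RPM in controls. The ranges overlapped widely, with 9 of 10 values of the LSD group above the control median. In the GRCr8 annotation, 2 other genes overlap *Bcl2*, so that its reads could include theirs. The log2 ratio of 0.18 (standard error 0.12, 95% confidence interval from -0.07 to 0.43) did not pass the threshold (adjusted p = 0.336, edgeR's quasi-likelihood test). Across the alternatives tried without leaving out a rat it ranged from 0.09 to 0.30 and passed in none of the 9, and without the 4 rats of high striatal markers it was 0.02 (adjusted p = 0.909, same test).

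*Mcl1*, a guardian whose protein is turned over within short times, had 15.5 RPM in the lowest, a median of 20.4 RPM and 26.4 RPM in the highest LSD-treated rat, against 12.5, 17.8 and 22.3 RPM in controls. The ranges overlapped, with 8 of 10 values of the LSD group above the control median. Its log2 ratio was 0.18 (standard error 0.099, 95% confidence interval from -0.02 to 0.39) and did not pass the threshold (adjusted p = 0.221, edgeR's quasi-likelihood test).

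Among the BH3-only members, *Bid* showed the lowest log2 ratio, and *Bad*, *Bbc3* and *Bnip3* had values close to 0. *Bid*, whose protein is cut by caspase-8 and then activates BAX and BAK, had 28.4, 31.5 and 37.1 RPM as the lowest, median and highest level in LSD-treated rats and 31.2, 35.1 and 40.5 RPM in controls. The ranges overlapped, and 9 of the 10 LSD-treated rats were below the control median. The log2 ratio was -0.15 (standard error 0.059, adjusted p = 0.0942, edgeR's quasi-likelihood test), and it fell short of the threshold. *Bid* was also the member that followed library size most closely. Within groups, its level had a Pearson's r of -0.85 and a Spearman's rho of -0.80 with the log10 of the reads on genes over the 20 rats, and r was -0.81 without the 2 rats of most extreme depth. The libraries of LSD-treated rats were larger, with a median of 20271086 reads against 16815424. With every library thinned to the smallest one, the log2 ratio of *Bid* was -0.10 (adjusted p = 0.233, same test). Thinning keeps a gene's expected share of its library, so the part of library size in this difference was not tested.

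*Bad*, which binds BCL-XL and BCL2 and is held inactive by phosphorylation, ranged from 26.0 to 30.6 RPM with a median of 28.6 RPM in LSD-treated rats and from 26.2 to 38.2 RPM with a median of 27.2 RPM in controls. Saline rat 9 had the highest level. The log2 ratio was -0.02 (standard error 0.065, 95% confidence interval from -0.15 to 0.12, adjusted p = 0.884, edgeR's quasi-likelihood test), and without saline rat 9 the log2 ratio was 0.04.

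*Bbc3* encodes PUMA, a BH3-only protein. It ranged from 3.76 to 5.12 RPM with a median of 4.63 RPM in LSD-treated rats and from 3.62 to 5.74 RPM with a median of 4.47 RPM in controls. Its log2 ratio was 0.01 (standard error 0.089, 95% confidence interval from -0.17 to 0.19, adjusted p = 0.959, edgeR's quasi-likelihood test). *Bnip3*, a mitochondrial receptor for mitophagy that is induced by hypoxia, ranged from 28.3 to 37.9 RPM with a median of 30.5 RPM in LSD-treated rats and from 25.0 to 42.7 RPM with a median of 30.9 RPM in controls. Its log2 ratio was -0.03 (standard error 0.080, 95% confidence interval from -0.20 to 0.13, adjusted p = 0.816, same test). For *Bad*, *Bbc3* and *Bnip3*, the intervals leave out changes as large as that fitted for *Bax*, and the spread between rats was wider in the control group, with coefficients of variation from 13.5% to 16.1% against 6.04% to 9.87% in the LSD group. Without saline rat 9 the control value of *Bad* was 8.05% in place of 13.5%, so that most of its wider spread rested on that rat.

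Ratios of reads within a rat do not depend on how the libraries are scaled, and they are given here as a description. They can still vary with library size. Within groups, the log10 of the reads on genes had an r of -0.50 with *Bok*, 0.51 with *Bcl2l1* and 0.50 with *Mcl1*. It was 0.19 with *Bax*, -0.12 with *Bak1* and -0.31 with *Bcl2*. The libraries of LSD-treated rats were larger, and the part of library size in these ratios was not tested. The ratio of *Bok* to *Bcl2l1* reads ranged from 0.520 to 0.708 with a median of 0.596 in LSD-treated rats and from 0.706 to 0.971 with a median of 0.738 in controls. Of the LSD-treated rats, 9 lay below every control, and the ranges touched at a single rat of each group. The ratio of *Bax* to *Bcl2* reads, an effector and a guardian often set against each other, had a median of 3.86 in LSD-treated rats (3.23 to 4.59) and 5.35 in controls (3.41 to 8.71). All 10 LSD-treated rats were below the control median for this ratio, but 2 were below every control. The ratio is not corrected for gene span, which is 5435 bases for *Bax* and 162437 bases for *Bcl2* in GRCr8. After the span correction the log2 ratios of LSD over saline were -0.17 for *Bax* and 0.09 for *Bcl2*. Without the 4 rats of high striatal markers they were -0.22 and 0.02. The ratio of *Bak1* to *Mcl1* reads had a median of 0.624 (0.473 to 0.767) against 0.834 (0.555 to 1.18), and again all 10 LSD-treated rats were below the control median. *Bok* was also lower relative to *Bax*, with a median ratio of 1.85 (1.60 to 2.17) in LSD-treated rats and 2.30 (1.92 to 2.63) in controls. Because *Bok* was chosen by this contrast, its ratios to *Bcl2l1* and *Bax* carry the selected difference and do not support it independently.

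The members did not vary as a block from rat to rat. After each group was centred on its own mean, Pearson's r between *Bok* and the other members over the 20 rats ran from -0.26 with *Bnip3* to 0.40 with *Bbc3*, and it was 0.28 with *Bax* and -0.00402 with *Bak1*. *Bax* and *Bak1* had an r of -0.03 with each other. The highest value among the 45 pairs was 0.73, between *Bad* and *Bnip3* (Spearman's rho = 0.65, and r = 0.53 without the 2 rats farthest from the median of *Bad*), followed by 0.66 between *Bax* and *Bad* (rho = 0.56, r = 0.51 without 2 rats chosen likewise) and 0.61 between *Bcl2l1* and *Bad* (rho = 0.67, r = 0.74). The lowest was -0.60, between *Mcl1* and *Bid* (rho = -0.54, r = -0.46), with -0.60 also between *Bcl2l1* and *Bid* (rho = -0.56, r = -0.50). These points share their libraries. The log10 of the reads on genes had an r of 0.57 with the centred level of *Bad*, 0.56 with *Bnip3*, 0.51 with *Bcl2l1* and 0.50 with *Mcl1*, and of -0.85 with *Bid* and -0.50 with *Bok*. Without the 2 rats of most extreme depth these were 0.45, 0.56, 0.53, 0.57, -0.81 and -0.33. The span slope of a library had an r of -0.72 with *Bax*, -0.68 with *Bbc3*, -0.59 with *Bad* and -0.37 with *Bok*. Without the 2 rats of most extreme slope these were -0.55, -0.44, -0.01 and -0.62, so that the value of *Bad* rested on those rats. The part of these library measures in the differences between groups was not tested. Thinning keeps each gene's expected share of its library, so it cannot decide the part of library size. The span correction given here adjusts for gene span only.

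**Figure D3:**
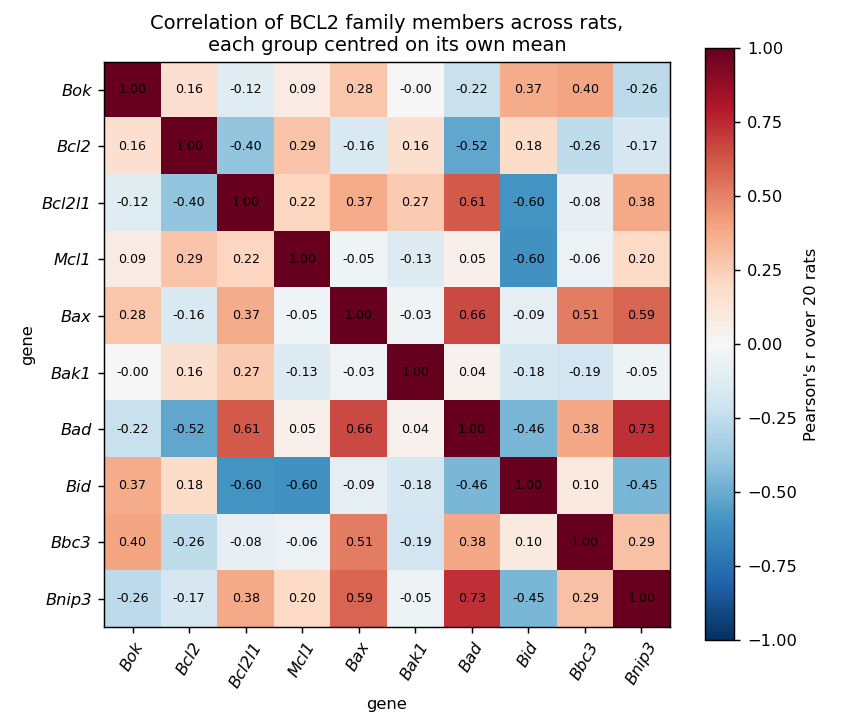
Pearson's r between the levels of each pair of members over 20 rats, on log2(TMM-normalised RPM + 1) after each group was centred on its own mean; red is positive and blue negative, and the number in each cell is r. *Bok* has no value beyond -0.26 or 0.40 with another member, while *Bad*, *Bnip3* and *Bax* share values from 0.59 to 0.73 among themselves.

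Genes whose levels followed *Bok* within groups were also sought among all genes above a minimum level. That minimum left out the members *Bcl2* and *Bbc3*, and the extremes of so many genes do not bear on the family. Among 11413 other genes with a mean of at least 5 RPM, the central 90% of which had an r between -0.53 and 0.48 with *Bok*, the highest was *Gnai2*, an inhibitory G protein alpha subunit, with r = 0.82 over the 20 rats (rho = 0.76). Its r was 0.84 in LSD-treated rats, 0.81 in controls and 0.76 without saline rats 4 and 7, which were the farthest from the median of *Bok*. *Gnai2* was down-regulated in LSD-treated rats as well, from 499.2 to 422.0 RPM on average, with a log2 ratio of -0.24 (standard error 0.053, adjusted p = 0.00755, edgeR's quasi-likelihood test). As extremes among many genes, these values are descriptions. Next came *Esrra*, a nuclear receptor that drives genes of mitochondrial metabolism (r = 0.76), *Cpne6*, a calcium-dependent membrane-binding protein of neurons (0.75), *Plpp4*, a phospholipid phosphatase (0.74), and *RGD1308430* (0.74), with r between 0.60 and 0.74 when saline rats 4 and 7 were left out. Of these 4, *Esrra* passed the threshold, with a log2 ratio of -0.19 (adjusted p = 0.0402, same test). The lowest correlations were those of *Lmbrd1*, a lysosomal cobalamin transporter (-0.80), *Srpk2*, a kinase of splicing factors (-0.80), and *Kcnab1*, an auxiliary subunit of potassium channels (-0.79), and without the same rats r lay between -0.83 and -0.76. Of these 3, *Srpk2* passed the threshold, with a log2 ratio of 0.19 (adjusted p = 0.0258, edgeR's quasi-likelihood test). In GRCr8, *Lmbrd1*, *Srpk2* and *Kcnab1* span 81703, 191363 and 466662 bases, against a median of 24491 over tested genes with a span. Among the 5 highest correlates, *Plpp4* spans 129479 bases and the rest 5206 to 20608. The part of gene span and library size in these correlations was not tested. Without centring, the treatment difference itself enters the correlation, and 1 of these 8 genes was then among the 5 highest and 3 lowest.

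**Figure D4:**
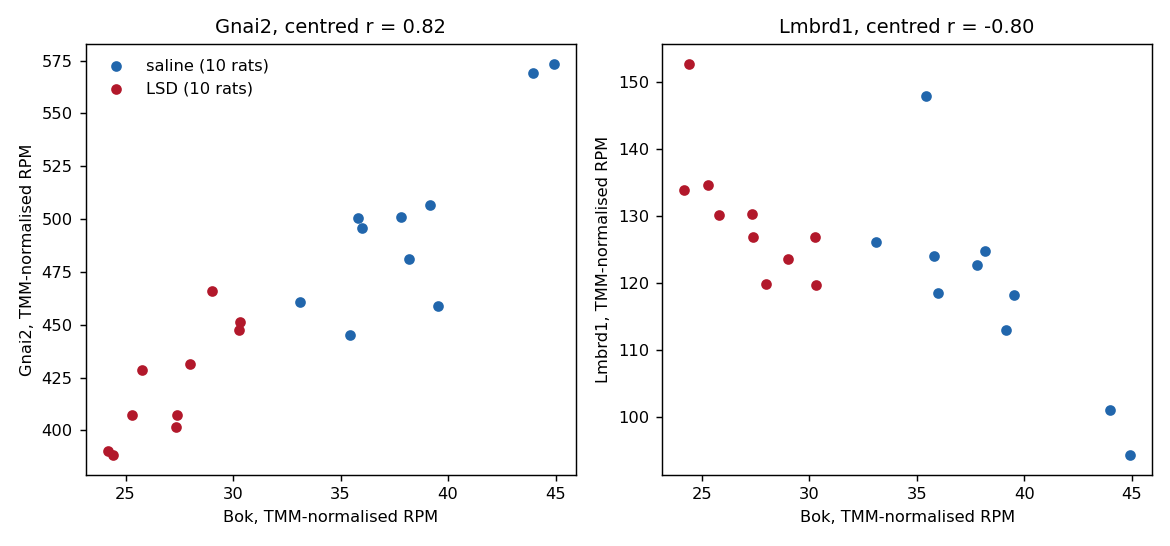
Level of *Gnai2* (left) and *Lmbrd1* (right) against that of *Bok* in the same rat, both in TMM-normalised RPM, for 10 saline-treated rats (blue) and 10 LSD-treated rats (red). *Gnai2* is higher and *Lmbrd1* lower in rats with more *Bok*, within each group and across both, and the *Bok* values of saline rats 4 and 5 lie at the far right.

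Markers of the cell types in the cortex were set beside these differences. Summed levels of the 10 marker lists overlapped between the groups, and 4 of their 44 genes passed the threshold, beside 15.0% of all genes tested. All 4 were in the list of inhibitory neurons, where *Gad2* and *Vip* were higher and *Slc32a1* and *Sst* lower in LSD-treated rats. This list, which has 6 genes, summed to between 657.5 and 816.9 RPM in LSD-treated rats and between 697.7 and 935.3 RPM in controls. It was also the list whose sum followed *Bok* most closely, with r = 0.68 within groups over the 20 rats (rho = 0.70, and r = 0.57 without saline rats 4 and 7). Its members differed, with an r of 0.62 for *Slc32a1* and 0.52 for *Gad1* but -0.48 for *Pvalb*. The sum of the 6 oligodendrocyte markers ranged from 2231 to 5758 RPM in LSD-treated rats and from 2194 to 7476 RPM in controls and had an r of -0.39 with *Bok* (rho = -0.35). The 4 markers of striatal projection neurons, which are not a cell type of the cortex, were each below the control median in 9 of 10 LSD-treated rats and had log2 ratios of -1.06 (*Adora2a*), -0.80 (*Rgs9*), -0.61 (*Drd1*) and -0.45 (*Ppp1r1b*). None of the 4 passed the threshold (adjusted p from 0.0672 to 0.113, edgeR's quasi-likelihood test). Their sum had an r of -0.29 with *Bok* within groups (rho = -0.28). All 44 marker genes had reads, although the choroid plexus marker *Folr1* was at 0 in a control rat, and the part of cell composition in the level of *Bok* was not tested.

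Genes whose proteins bind BOK or set its amount formed a list of 6, of which 2 were up-regulated and none was down-regulated by edgeR. This was 33.3% of a short list, beside 15.0% of all genes. *Itpr1* and *Itpr2*, the IP3 receptors that release calcium from the endoplasmic reticulum, were both up-regulated in LSD-treated rats. *Itpr1*, the main receptor of neurons, rose from 671.5 ± 86.3 to 811.6 ± 73.0 RPM (SD, n = 10), a log2 ratio of 0.27 (standard error 0.074, adjusted p = 0.0189, edgeR's quasi-likelihood test), and 9 of 10 values of the LSD group exceeded the control median. *Itpr2* rose from 19.6 ± 2.98 to 23.6 ± 1.82 RPM (SD, n = 10), with a log2 ratio of 0.27 (adjusted p = 0.0244, same test) and no LSD-treated rat under the control median. Both lost the call after the span correction, with log2 ratios of 0.16 each (adjusted p = 0.0746 for *Itpr1* and 0.121 for *Itpr2*), and *Itpr2* also without the 4 rats of high striatal markers (adjusted p = 0.0637, same test). *Itpr3* had a log2 ratio of 0.03 (standard error 0.11) and *Umps*, an enzyme of uridine synthesis that binds BOK, of 0.02 (standard error 0.048). Neither of these passed the threshold, nor did *Vcp*, the ATPase that extracts proteins for degradation (-0.10, adjusted p = 0.132).

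Further BCL2 proteins numbered 14, of which 10 passed the filter on low counts and none passed the threshold in either direction by edgeR. At 228.9 ± 12.2 RPM in LSD-treated rats and 233.6 ± 14.9 RPM in controls (SD, n = 10), the guardian *Bcl2l2* had a log2 ratio of -0.03 (95% confidence interval from -0.12 to 0.06). The BH3-only genes *Bcl2l11* (-0.01), *Bmf* (-0.07), *Hrk* (-0.10) and *Pmaip1* (0.12) and the mitophagy receptor *Bnip3l* (0.00) had log2 ratios with intervals that included 0. The largest fitted changes of the 10 were those of *Bcl2l12* (-0.31, adjusted p = 0.177) and *Bcl2a1* (-0.30, adjusted p = 0.518, edgeR's quasi-likelihood test). Both were low, with control means of 1.95 and 0.65 RPM, and their intervals included 0. The 4 genes *Bik*, *Bcl2l10*, *Bcl2l14* and *Bcl2l15* had too few reads to be tested.

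The genes of the caspase cascade numbered 19, with 18 tested, 1 up-regulated and 1 down-regulated (11.1% called, below the 15.0% of all genes). *Xiap*, which encodes an inhibitor of caspases, rose from 24.1 ± 6.51 to 33.3 ± 5.14 RPM (SD, n = 10), a log2 ratio of 0.46 (standard error 0.12, adjusted p = 0.0180, edgeR's quasi-likelihood test), with no LSD-treated rat under the control median. *Endog*, a mitochondrial nuclease, fell from 18.2 ± 4.54 to 13.1 ± 1.70 RPM (SD, n = 10), a log2 ratio of -0.47 (standard error 0.12, adjusted p = 0.0135, same test), with all 10 LSD-treated rats below the control median. The apoptosome scaffold *Apaf1* had a log2 ratio of 0.23 (adjusted p = 0.0543) and *Casp9*, which it activates, of -0.10 (adjusted p = 0.245), neither of them past the threshold. *Casp6* is listed at 0 reads in every rat. The median log2 ratio of the 18 genes was 0.05.

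Of 11 genes of the mitochondrial outer membrane and of mitochondrial dynamics, 10 were tested, and 2 were up-regulated and 2 down-regulated. The called share was 40% of this short list, beside 15.0% of all genes. *Fis1*, an adaptor of mitochondrial fission, fell from 161.4 ± 24.8 to 128.1 ± 10.7 RPM (SD, n = 10), a log2 ratio of -0.33 (standard error 0.074, adjusted p = 0.00786, edgeR's quasi-likelihood test). *Dnm1l*, the fission dynamin, rose from 130.1 ± 22.1 to 159.8 ± 13.4 RPM (SD, n = 10), a log2 ratio of 0.30 (adjusted p = 0.0189, same test). *Mfn1*, a fusion GTPase, had a log2 ratio of 0.31 (adjusted p = 0.0164), and *Vdac2*, the channel that holds BAK in the membrane, of -0.17 (adjusted p = 0.0203, same test). *Fis1*, *Dnm1l* and *Mfn1* remained called in all 9 alternatives, and *Vdac2* in 6 of them, and *Vdac2* lost the call without the 4 rats of high striatal markers as well (adjusted p = 0.0570, same test).

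Among 11 death receptors and adaptors, 10 of them tested, 3 were down-regulated and 1 was up-regulated (40% called, beside 15.0% of all genes). The low-affinity neurotrophin receptor *Ngfr* (log2 ratio -0.43, adjusted p = 0.0228, edgeR's quasi-likelihood test), the TNF receptor *Tnfrsf1a* (-0.28, adjusted p = 0.0299) and its adaptor *Tradd* (-0.35, adjusted p = 0.0338) were lower. *Cflar*, which encodes the caspase-8 inhibitor FLIP, was higher (0.20, adjusted p = 0.0308, same test), with no LSD-treated rat under the control median. *Ngfr* and *Tradd* were low, with means under 5 RPM in both groups. After the span correction *Tnfrsf1a*, *Tradd* and *Cflar* lost their calls, with adjusted p-values of 0.0541, 0.105 and 0.167. With each rat left out in turn, *Tnfrsf1a* and *Tradd* held in 13 and *Cflar* in 15 of the 20 fits. *Ngfr* held in all of these but lost the call without the filter on low counts (adjusted p = 0.0523), with thinned libraries (0.0930), with the replicate block and span correction together (0.0638) and without the 4 rats of high striatal markers (0.0613).

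Of 15 regulators of BCL2 proteins, all tested, 3 were up-regulated and none was down-regulated by edgeR (20% called, beside 15.0% of all genes). These were *Usp9x*, a deubiquitinase that stabilises MCL1 (log2 ratio 0.31, adjusted p = 0.0339, edgeR's quasi-likelihood test), *Mdm4* (0.27, adjusted p = 0.0425), and *Hif1a*, the hypoxia factor that induces *Bnip3* (0.20, adjusted p = 0.0339). All 3 lost the call after the span correction, with log2 ratios from 0.15 to 0.23, and with each rat left out in turn *Usp9x* held in 11, *Mdm4* in 7 and *Hif1a* in 13 of the 20 fits. *E2f1*, a transcription factor of the cell cycle, had a log2 ratio of -0.19 (adjusted p = 0.229, same test) and did not pass the threshold. Over the 6 lists together, 69 of 76 genes were tested, 9 were up-regulated and 6 down-regulated, which is 21.7% beside 15.0% of all genes, and their median log2 ratio was 0.03. After the span correction, 3 were up-regulated and 4 down-regulated, beside 560 up-regulated and 1126 down-regulated of all 16605 genes tested. The shares of 21.7% and 15.0% are those before this correction, and after it the called share of the lists was no larger than that of all genes.

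**Figure D5:**
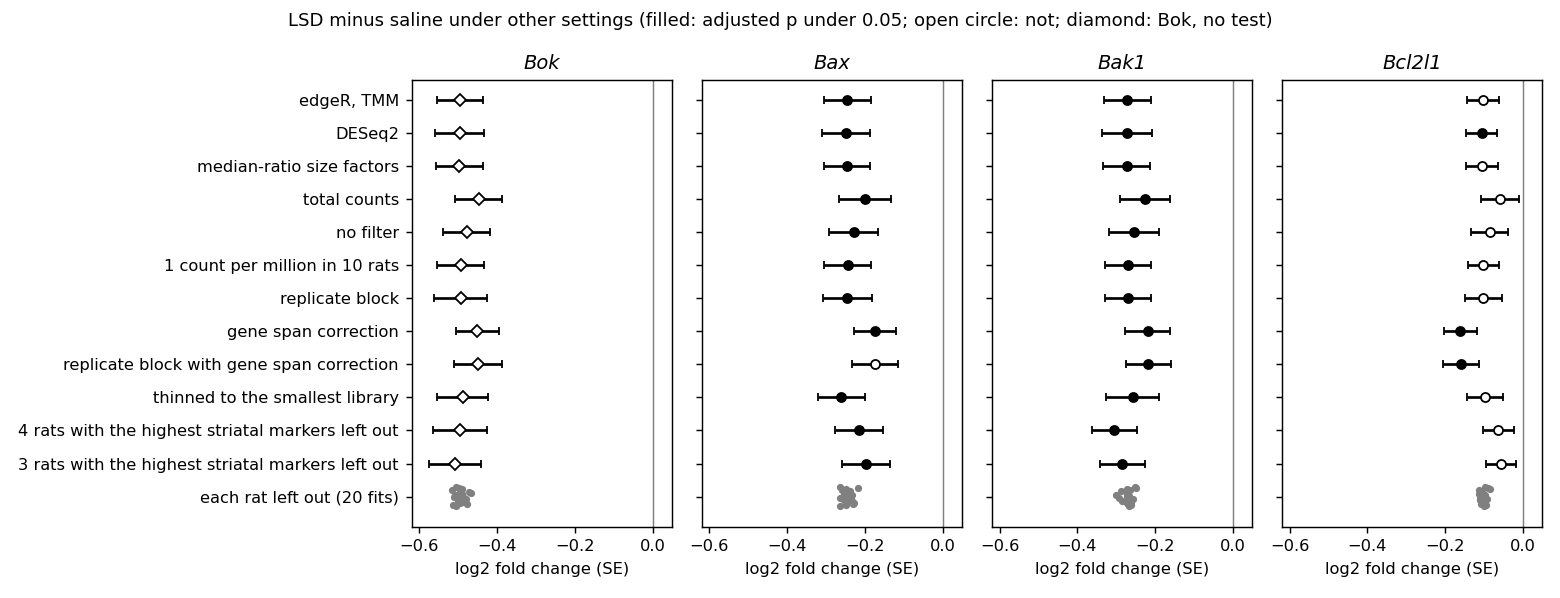
Log2 fold change (LSD minus saline, with its standard error) of *Bok*, *Bax*, *Bak1* and *Bcl2l1* under each setting, with the 20 fits that leave out 1 rat in the lowest line (grey points); filled symbols have an adjusted p under 0.05, open circles do not, and diamonds mark *Bok*, which is not tested. *Bok* stays between -0.52 and -0.45 throughout, *Bak1* is filled in every setting, *Bax* in all but the block with span correction, and *Bcl2l1* in 3 of them.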

How the data were processed

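RNA from the mPFC of 20 rats was sequenced. According to the study's methods and the submitters' processing notes, the authors used TrimGalore for trimming, HISAT2 for alignment to rn6 and HTSeq-count for counting, and deposited raw counts per gene. Versions, gene annotation and strand setting are not given in the sources used here. The 5 unnamed entries that end the matrix, with 25.5% to 29.0% of the counts per library, were left out. Groups came from the sample labels, which name no batch.

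Genes that reached 5 reads in 10 or more rats were tested with edgeR 4.0.16 (R 4.3.3, limma 3.58.1, TMM, quasi-likelihood F test, Benjamini-Hochberg over all genes, threshold 0.05). DESeq2 1.42.0, which the study used, is an alternative. The main fit did not treat rats with the same number as pairs. Their within-group deviations correlated at over 0.1 in 6 of 10 pairs (mean 0.15, range -0.26 to 0.47). These values do not settle whether the numbers mark pairs, and a fit with the number as a block is among the alternatives. Gene spans for the span correction (50 bins, 5 smoothed) came from RefSeq GRCr8, which matched 90.0% of tested genes, while the counts are on rn6, so no coordinates are printed. The members, gene lists and tests were chosen with earlier results of these data known. Named genes are all members, up to 3 called genes per list and direction, *Itpr1*, *Itpr2*, *Itpr3*, *Umps*, and the 5 highest and 3 lowest correlates of *Bok*; other genes of the lists were named after their values were seen, and some genes of the lists are not reported here. Correlations used log2(RPM + 1). Rats of a group are separate samples, and whether cages or litters were shared is not given in the sources used here.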

Additional observations from a re-analysis of the deposited data

Results flagged for a closer look

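Among the levels of the 10 genes, the reads on genes and the span slopes, 24 groups of 10 rats were examined for a rat far from the others, and 1 was found. The span slope of saline rat 9 was -0.225 (log2 expression against log10 gene span), against -0.103 in the next rat, a gap of 47.5% of the group's range. Chance gives such a gap in about 1 of 20 groups. Without this rat, *Bok* had a log2 ratio of -0.50, *Bax* of -0.22 and *Bak1* of -0.25, and the calls of *Bax* and *Bak1* held (edgeR's quasi-likelihood test).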

How the results depend on the processing

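*Bok* kept its direction in all 9 alternatives and in the 20 fits without 1 rat (-0.52 to -0.47). *Bak1* passed the threshold in all of these, and *Bax* in all but the replicate block with gene span correction (-0.17, adjusted p = 0.0626), where *Bak1* had 0.0267. Over the 9 alternatives the adjusted p of *Bax* ran from 0.00158 to 0.0626. The replicate block alone gave -0.49 for *Bok* and 3 down-regulated and 0 up-regulated members beside *Bok*, since *Bid* passed (adjusted p = 0.0499), as it also did without LSD rat 1 (0.0452). Over all genes the block called 1355 up-regulated and 1605 down-regulated, scaling by total counts 858 down-regulated, no filter 836 down-regulated and the span correction 560 up-regulated genes. For the 6 lists together, scaling by total counts called 14 genes up-regulated and 3 down-regulated, no filter 2 down-regulated, the span correction 3 up-regulated, and the replicate block with gene span correction 4 up-regulated and 3 down-regulated. With each rat left out, 663 to 1669 genes were up-regulated and 957 to 1906 down-regulated, 2 to 3 members beside *Bok* were down-regulated and 0 up-regulated, and of the lists 5 to 13 genes were up-regulated and 4 to 7 down-regulated. The up-regulated genes over all were 663 without LSD rat 8, 706 without saline rat 4 and 1669 without saline rat 2, and those of the lists were 5 without LSD rat 7 or saline rats 1, 3 or 5, one at a time, and 13 without saline rat 2. Leaving out the 4 rats of high striatal markers, or the 3 highest of them (saline rats 8, 9 and 2), both chosen after the data were seen, gave 1701 and 1927 up-regulated genes over all, 13 and 15 in the lists, 3 down-regulated members beside *Bok* each time, and log2 ratios of -0.50 and -0.51 for *Bok*. Of the genes named from the lists, *Cflar* lost the call without LSD rats 7 or 9 or saline rats 1, 3 or 5, *Hif1a* without LSD rats 7 or 8 or saline rats 1, 3, 4, 5 or 9, *Tnfrsf1a* without LSD rats 3, 4, 5 or 8 or saline rats 4, 5 or 9, *Tradd* without LSD rats 4, 5, 7 or 8 or saline rats 1, 5 or 6, *Usp9x* without LSD rats 3, 4, 7 or 8 or saline rats 1, 3, 4, 5 or 9, and *Mdm4* without any of 7 LSD and 6 saline rats, the highest adjusted p being 0.0830. The causes of these differences were not tested. Leaving out the filter changed the number of genes tested and also the median log2 ratio over all genes, 0.03 in place of 0.00. *Bcl2* had the fewest reads of the members, 40 to 117 per rat.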

Other observations

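The genes next to *Bok* were examined by their order in GRCr8, a choice made after the data were seen. On one side, *Stk25*, *Farp2* and *Hdlbp* had log2 ratios of -0.05, 0.02 and 0.12, and on the other side *Thap4*, *Atg4b* and *Dtymk* had -0.14, -0.11 and -0.15. None of the 6 passed the threshold with edgeR's quasi-likelihood test, the smallest adjusted p being 0.0506 for *Atg4b*, a protease of autophagy. *Itpr3*, an IP3 receptor gene, is among the nearest tested neighbours of *Bak1*, and *Bcl2l13* is the nearest one to *Bid* on one side. Neither passed the threshold (log2 ratios of 0.03 and 0.07).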
